A study of Mus musculus with 11 samples.

Results

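The genes that encode the proteasome and its dedicated helpers were followed through an RNA-seq experiment in aTC1-6 cells. This is an immortal mouse line of glucagon-making alpha cells from the pancreas. The genes are all protein-coding rows whose mouse symbol is Psma, Psmb, Psmc, Psmd, Psme, Psmf or Psmg followed by a number, apart from the 3 immunoproteasome genes Psmb8, Psmb9 and Psmb10. The rule gave 45 genes of 53947 rows, and it used names, not measured values. Of these, 43 were among the 14133 genes with enough counts to test. Psma8, the testis form of an alpha subunit, had 1 count over all libraries, and Psmb11, the thymus form of a catalytic subunit, had 0 to 2 counts per library.

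The proteasome degrades proteins that carry ubiquitin. Its barrel, the 20S core, has outer rings of alpha subunits and inner rings of beta subunits, and the beta subunits encoded by Psmb5, Psmb6 and Psmb7 hold the active sites. The 19S cap has a base of ATPases that unfold the substrate and a lid that removes ubiquitin. Endocrine cells that secrete large amounts of hormone send misfolded secretory proteins to it from the endoplasmic reticulum. When proteasome activity falls, the transcription factor made from Nfe2l1 is known to raise many subunit genes together through antioxidant response elements in their promoters.

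The study had 3 libraries from cells given a scramble control, 4 from cells with METTL3 KD and 4 from cells with METTL14 KD, where KD stands for knockdown, all collected 72 h later. METTL3 and METTL14 are the catalytic and the RNA-binding partner of the enzyme that writes N6-methyladenosine on messenger RNA. All cells were reverse transfected, and the line carries no other stated alteration. The labels name neither the knockdown reagent nor the sex or age of the source, and they do not say whether replicates came from separate cultures. The p-values therefore reflect the spread among these libraries, part of which may be technical. As one immortalised line, it is one genetic background.

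Library totals ran from 19576632 to 22406527 estimated counts. The targeted transcripts matched the labels: Mettl3 was at 14.9 ± 1.02 CPM (SD, n = 3) in scramble and 5.34 ± 0.449 CPM (SD, n = 4) in METTL3 KD, and Mettl14 at 25.2 ± 1.70 CPM (SD, n = 3) in scramble against 14.7 ± 0.720 CPM (SD, n = 4) in METTL14 KD. CPM are counts scaled to a library of 1000000 counts, made comparable between libraries by the trimmed mean of M-values. Gcg, the glucagon gene, was at 28740 to 38730 CPM in every library, while Ins1, Ins2, Pdx1 and Ppy, markers of other islet cells, were at 0.0960 CPM or less and Nkx6-1, a beta cell factor, was at 48.9 to 72.0 CPM. Scramble replicate 2 stood apart: the sum over 5 lung and airway markers was 92.1 CPM in it, against 3.43 CPM or less in any other library. The sum over 8 blood and immune markers was 53.5 CPM, against 5.92 CPM or less. In that library the median deviation of short transcripts, those under 1000 bases, was -0.11 on the log2 scale. Results are therefore given with and without it, and the part these features play in them was not tested.

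Proteasome genes were higher with METTL3 knocked down, by small amounts that many of them shared. Of 43 genes, 26 rose and 0 fell in the quasi-likelihood test of edgeR, Benjamini-Hochberg adjusted over all genes at 0.05. Over all genes tested, 15.5% were called higher and 15.8% lower. In edgeR 1 gene, Psme1, was lower at an unadjusted p under 0.05, with 0 lower by adjusted p in DESeq2 or limma-voom. In bulk RNA, fewer cells of a kind and less RNA per cell cannot be told apart. The median log2 fold change was 0.16, a 1.12-fold difference, beside -0.00 over all genes. The range ran from -0.12 for Psme1, a subunit of an interferon-induced activator, to 0.33 for Psmd10, the base assembly chaperone gankyrin. In 30 genes every METTL3 KD library lay above every scramble library, as in 17.5% of all genes.

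With METTL14 knocked down, 18 of the 43 genes rose and 0 fell by edgeR's adjusted test, beside 10.1% of all genes called higher and 10.8% lower. None was lower at an unadjusted p under 0.05, with 0 lower by adjusted p in DESeq2 or limma-voom. DESeq2 called 16 genes higher, 13 of them among the 18, and limma-voom called 20, with 15 among the 18. Psma4, Psmb5, Psmd10, Psmg1 and Psmg4 were not called by DESeq2, nor Psma4, Psmg1 and Psmg4 by limma-voom. The median log2 fold change was 0.13, a 1.09-fold difference, beside 0.00 over all genes. Every METTL14 KD library lay above every scramble library in 23 genes, as in 14.4% of all genes. Both knockdowns are compared with the same scramble libraries, so their counts are not independent of each other. The METTL14 KD count by edgeR was 7 when METTL14 KD and scramble alone were fitted. With all groups fitted, it was 9 without METTL14 KD replicate 2, while it was 12 to 19 with any other single library left out.

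In edgeR, scramble replicate 2 bore on the size of these differences more than on the number of METTL3 KD calls. When that library was left out, the METTL3 KD count went from 27 to 19 in DESeq2 and from 30 to 25 in limma-voom. Scramble replicate 2 held the lowest of the 11 values for 35 of the 43 genes. The summed level of all proteasome genes was 6088, 5419 and 6111 CPM in scramble replicates 1, 2 and 3. It was 6487, 6578, 6448 and 6595 CPM in METTL3 KD and 6409, 6504, 6339 and 6408 CPM in METTL14 KD. The 8 knockdown libraries thus all lay above the 3 scramble libraries. Scramble replicate 2 lay below scramble replicates 1 and 3 by more than any knockdown library lay above those 2 replicates. As a share of all counts, proteasome genes took 0.604%, 0.554% and 0.608% in scramble, 0.647% to 0.661% in METTL3 KD and 0.632% to 0.647% in METTL14 KD.

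**Figure D1:**
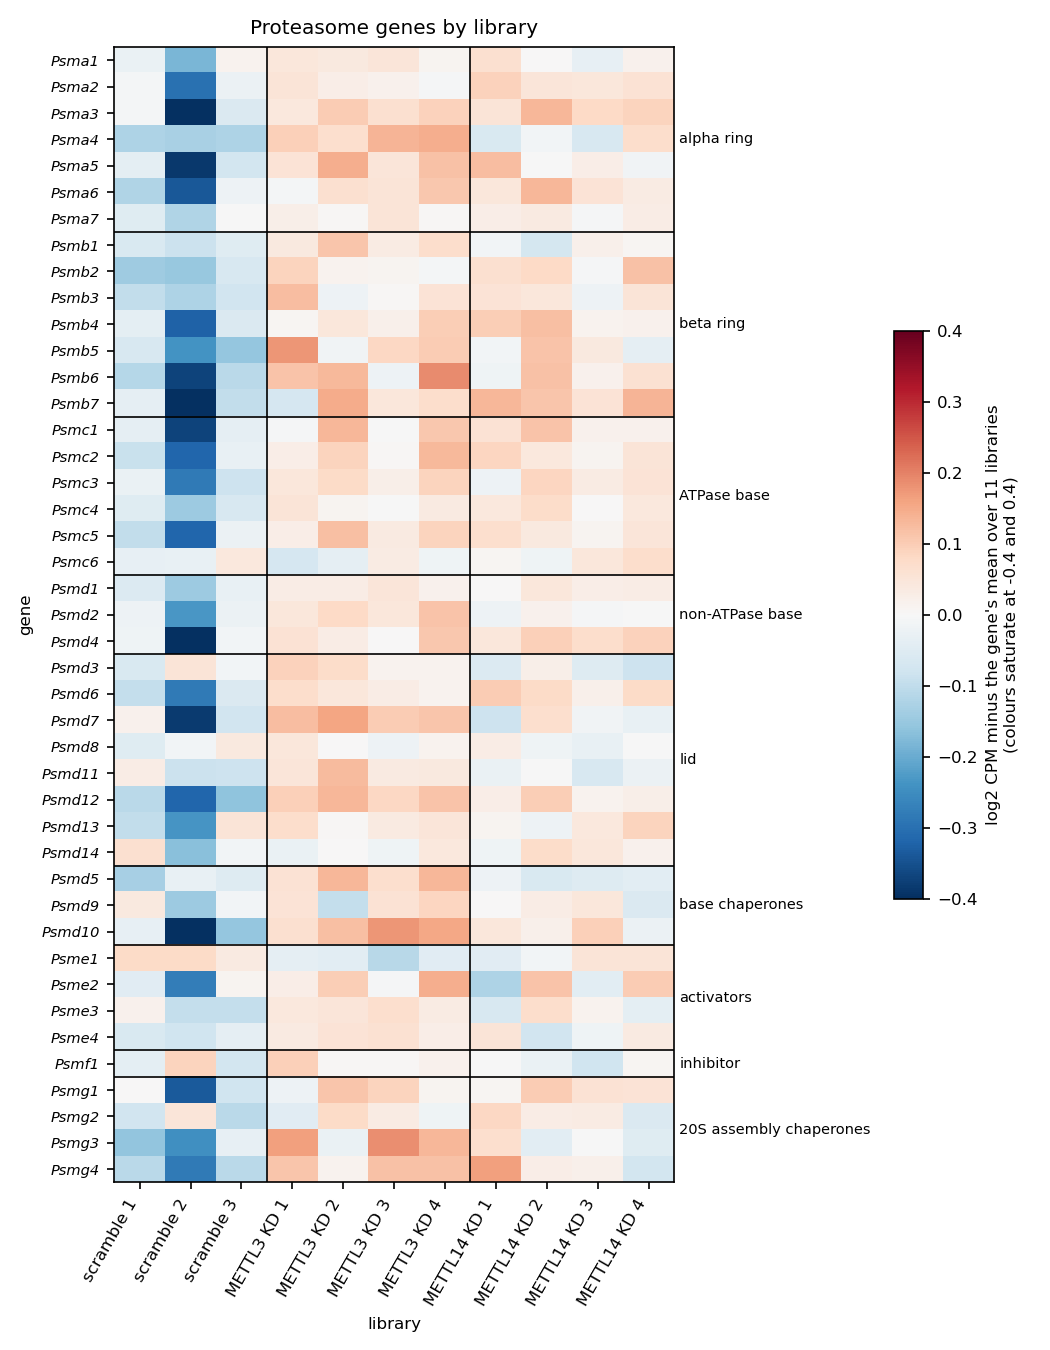
Each cell is the log2 CPM of 1 proteasome gene (rows, grouped by role) in 1 library (columns) minus that gene's mean over the 11 libraries, with red above and blue below the mean. Scramble replicate 2 is the bluest column and holds the lowest value for 35 of 43 genes, and the METTL3 KD and METTL14 KD columns are mostly red.

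Without scramble replicate 2, 27 genes rose and 0 fell in METTL3 KD, beside 15.3% of all genes called higher and 15.1% lower in edgeR, and the median log2 fold change was 0.10. In METTL14 KD, 14 rose and 0 fell, beside 9.34% higher and 10.1% lower of all genes, with a median of 0.09. In either comparison 0 genes were lower at an unadjusted p under 0.05, in edgeR, and 0 were lower by adjusted p in DESeq2 or limma-voom. DESeq2 and limma-voom fits without that library were added after seeing the data. DESeq2 called 19 genes higher in METTL3 KD and 12 in METTL14 KD, and limma-voom called 25 and 13. Of the METTL3 KD calls by edgeR, 23 were shared by both of its fits. Psmd11, Psme3 and Psmg1 were called with all libraries alone, and Psma3, Psmb7, Psmc1 and Psmd3 without scramble replicate 2 alone. Of the METTL14 KD calls by edgeR, 11 were shared. Psma2, Psma4, Psmb5, Psmd1, Psmd10, Psmg1 and Psmg4 were called with all libraries alone, and Psma3, Psmb7 and Psmd4 without scramble replicate 2 alone. The median size was thus lower without that library in both knockdowns, and every METTL14 KD library still lay above scramble replicates 1 and 3 in 24 genes, as in 19.5% of all genes, and every METTL3 KD library in 33, as in 22.7%.

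Of the 43 genes, 11 passed in edgeR in both knockdowns with and without scramble replicate 2: Psma6 of the alpha ring, Psmb2, Psmb3, Psmb4 and Psmb6 of the beta ring, the ATPases Psmc2, Psmc3, Psmc4 and Psmc5, and the lid subunits Psmd6 and Psmd12. When each library's trend with transcript length was removed, Psmb2, Psmb3 and Psmc4 lost the METTL3 KD call. Psmb3 lost the METTL14 KD call too. With scramble replicate 2 also left out, Psma6, Psmb2, Psmb4, Psmc4 and Psmd6 lost the METTL3 KD call. With that library left out and the length trend kept, DESeq2 did not call Psmc4 and Psmd6 in METTL3 KD. Neither DESeq2 nor limma-voom then called Psmc3 in METTL14 KD. When edgeR fitted METTL14 KD and scramble alone, Psmb4, Psmc2, Psmc3 and Psmc5 lost the METTL14 KD call. With each of the 11 libraries left out in turn, 19 of the 26 METTL3 KD calls held in every fit, as did 8 of the 18 METTL14 KD calls. The 8 were Psma6, Psmb2, Psmb3, Psmb6, Psmc4, Psmc5, Psmd6 and Psmd12. The shares of all genes that passed in this many fits were not counted. Another 11 genes passed in neither knockdown in either fit: Psma1, Psma7, Psmc6, Psmd8, Psmd9, Psmd13, Psmd14, Psme1, Psme2, Psmf1 and Psmg2. Genes in these 2 lists that are described below, and Psma3, Psma5, Psmb1, Psmc1, Psmd3, Psmd4, Psmd7 and Psmd11, were chosen after their values were seen where the naming rule did not already take them.

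**Figure D2:**
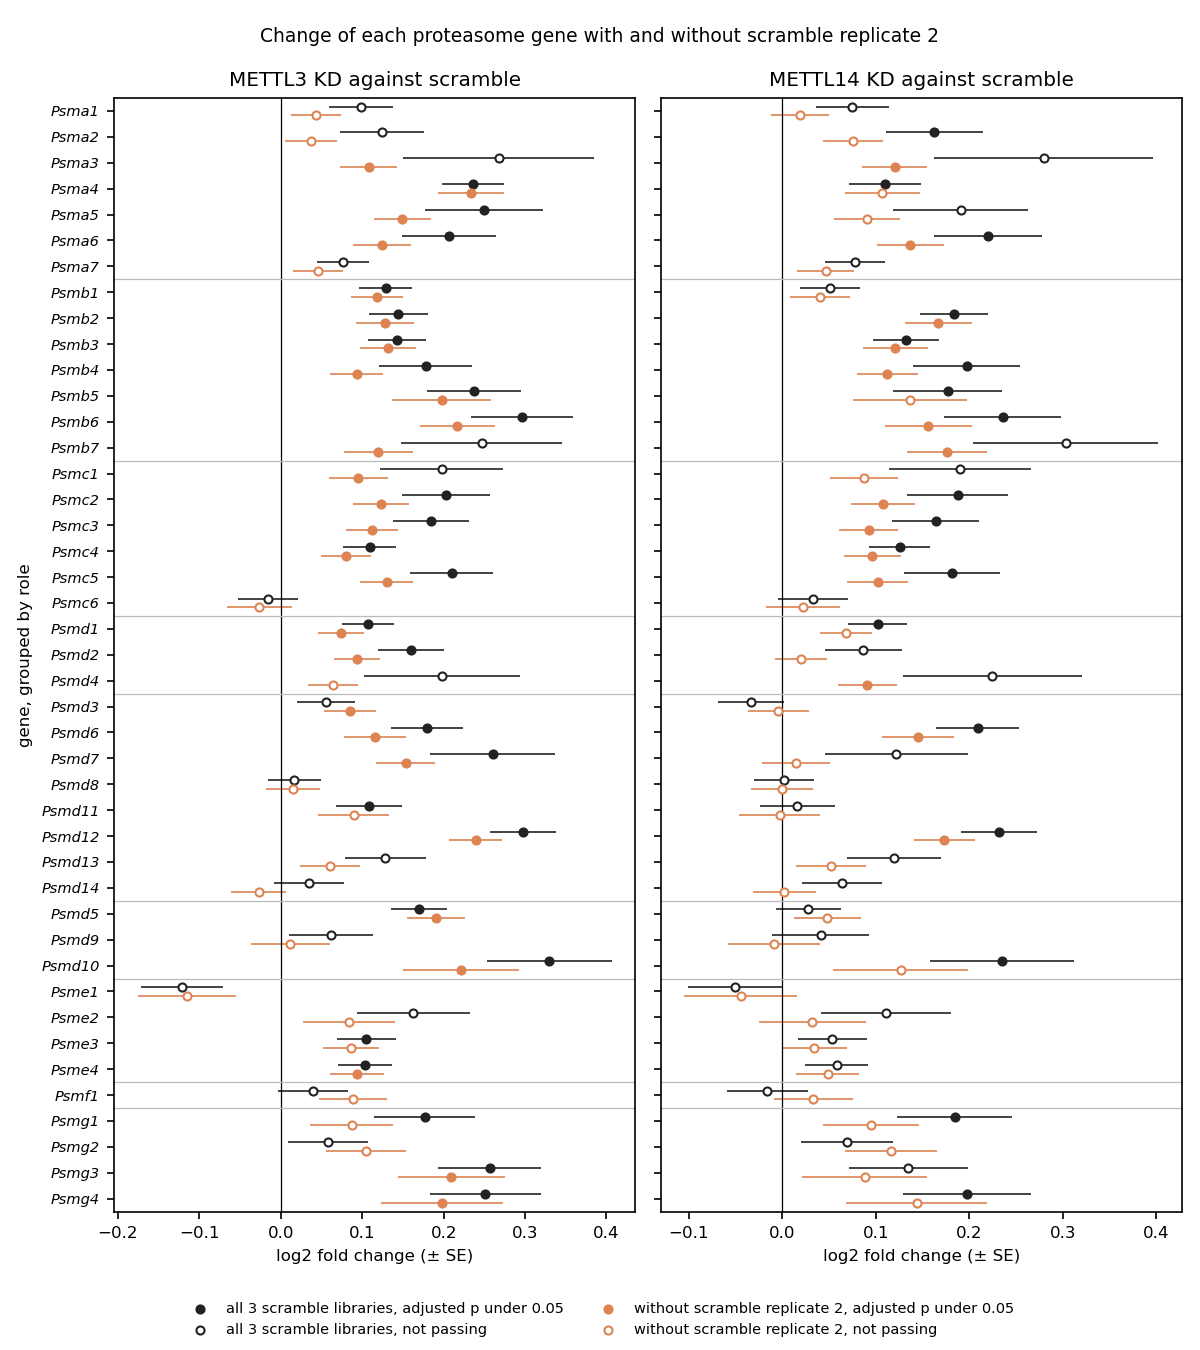
Log2 fold change (horizontal axis, ± SE) of each tested proteasome gene (vertical axis) in METTL3 KD and METTL14 KD against scramble, in black with all 3 scramble libraries and in orange without scramble replicate 2. Filled points pass edgeR's test; 26 black points are filled on the left and 18 on the right, and most orange points lie nearer to 0 than the black ones.

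Promoter sequences were set beside these values because genes that move together may share letters there, and because 1 motif, the antioxidant response element, is the known docking site for the factor made from Nfe2l1. RefSeq promoters of build GRCm38.p6, of 300 bases each with 250 before the start site, were given for 37 of the 45 genes. Stretches of 150 bases upstream of the start are printed 5′ to 3′ on the gene's strand, with capitals for matches on either strand to the element's core, TGANNNNGC, or to CCAAT, the letters bound by NF-Y. The stretches were chosen after their letters were seen, to show genes with and without the core among those that rose and those that did not. The first 5, all with the core, belong to genes that rose in METTL3 KD with and without scramble replicate 2, Psmd12 (chr11:107479378-107479527, plus strand), Psma4 (chr9:54950709-54950858, plus strand), Psmb6 (chr11:70525207-70525356, plus strand), Psmb5 (chr14:54617996-54618145, minus strand) and Psmb3 (chr11:97703284-97703433, plus strand):
Psmd12: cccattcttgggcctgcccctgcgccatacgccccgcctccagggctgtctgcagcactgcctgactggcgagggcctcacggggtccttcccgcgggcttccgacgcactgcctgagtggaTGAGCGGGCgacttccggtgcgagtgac
Psma4: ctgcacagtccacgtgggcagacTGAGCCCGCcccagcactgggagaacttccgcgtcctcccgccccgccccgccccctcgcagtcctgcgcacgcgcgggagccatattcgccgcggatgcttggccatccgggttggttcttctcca
Psmb6: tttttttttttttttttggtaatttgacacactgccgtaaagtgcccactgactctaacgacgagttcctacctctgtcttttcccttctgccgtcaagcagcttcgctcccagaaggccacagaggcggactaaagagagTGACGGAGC
Psmb5: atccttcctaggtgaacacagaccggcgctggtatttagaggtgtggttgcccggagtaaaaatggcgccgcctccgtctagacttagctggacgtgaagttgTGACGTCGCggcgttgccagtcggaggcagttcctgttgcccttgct
Psmb3: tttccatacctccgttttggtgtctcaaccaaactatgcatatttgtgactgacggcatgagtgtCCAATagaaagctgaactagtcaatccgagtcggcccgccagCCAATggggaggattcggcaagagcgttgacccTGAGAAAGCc
Psmd6 (chr14:14120946-14121095, minus strand) rose too and has neither motif in its window:
Psmd6: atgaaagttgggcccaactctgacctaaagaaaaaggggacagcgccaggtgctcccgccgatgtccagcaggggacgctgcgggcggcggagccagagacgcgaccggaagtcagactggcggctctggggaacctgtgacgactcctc
The remaining 3 belong to genes that passed in neither knockdown, Psmd9 (chr5:123228040-123228189, plus strand), which has the core, Psmd14 (chr2:61711544-61711693, plus strand) and Psmc6 (chr14:45329674-45329823, plus strand):
Psmd9: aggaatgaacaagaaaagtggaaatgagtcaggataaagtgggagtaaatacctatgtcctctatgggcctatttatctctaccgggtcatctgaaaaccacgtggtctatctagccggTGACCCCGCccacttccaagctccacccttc
Psmd14: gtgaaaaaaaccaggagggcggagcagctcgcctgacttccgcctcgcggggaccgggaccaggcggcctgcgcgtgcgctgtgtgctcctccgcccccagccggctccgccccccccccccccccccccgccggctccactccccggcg
Psmc6: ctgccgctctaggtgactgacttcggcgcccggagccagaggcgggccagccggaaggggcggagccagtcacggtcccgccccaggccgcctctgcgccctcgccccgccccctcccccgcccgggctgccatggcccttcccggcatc

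The core began 28 bases before the start in Psmd12, 47 before it in Psmb5, 9 before it in Psmb6, 127 before it in Psma4 and 10 before it in Psmb3, which also had CCAAT at 85 and 43 bases before it. In Psmd9, which did not pass, the core began 31 bases before the start. The stretches of Psmd14 and Psmc6 hold neither motif, but their full windows do: Psmc6 has the core 241 and 227 bases before the start, the second on the opposite strand. Over whole windows on both strands, 57.5% of the 40 promoter entries of these 37 genes held the core, beside 41.3% of all 32851 promoters. For CCAAT the shares were 32.5% and 37.4%. Among genes with a promoter entry, 13 of the 19 that rose in METTL3 KD in both fits held the core, as did 6 of the 10 that passed in neither knockdown. Within the 150 bases upstream these counts were 8 of 19 and 2 of 10, and no difference was tested. The motif counts are a description of letters in these windows and do not show binding.

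Of the catalytic subunits of the beta ring, Psmb5 and Psmb6 rose in METTL3 KD with all libraries and Psmb7 did not pass in edgeR. Of the 7 beta subunits tested, 6 rose in METTL3 KD and 5 in METTL14 KD, and without scramble replicate 2 these counts were 7 and 5. Over all genes tested, the shares called higher were 15.5% and 10.1%, and 15.3% and 9.34% without that library. The same shares stand beside the counts by role below. The median log2 fold change of the ring in METTL3 KD was 0.18.

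Psmb6, which encodes the caspase-like subunit, was at 65.5, 54.8 and 65.8 CPM in scramble, 76.8, 77.6, 69.9 and 80.8 CPM in METTL3 KD and 70.1, 76.9, 71.7 and 74.0 CPM in METTL14 KD. Neither knockdown overlapped scramble, although METTL3 KD replicate 3 and METTL14 KD replicate 1 were close to the 2 higher scramble libraries. Psmb6 rose by 0.30 ± 0.06 in METTL3 KD (edgeR, adjusted p = 0.00217) and 0.24 ± 0.06 in METTL14 KD (edgeR, adjusted p = 0.0151). When scramble replicate 2 was left out, it was 0.22 ± 0.05 (edgeR, adjusted p = 0.000433) and 0.16 ± 0.05 (edgeR, adjusted p = 0.0146).

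Psmb5 encodes the chymotrypsin-like subunit, the main target of proteasome inhibitor drugs. It was at 25.2, 22.4 and 23.7 CPM in scramble, 29.8, 26.1, 27.9 and 28.3 CPM in METTL3 KD and 26.2, 28.6, 27.1 and 25.7 CPM in METTL14 KD. The highest scramble library lay just under the lowest of either knockdown. Psmb5 rose by 0.24 ± 0.06 on the log2 scale in METTL3 KD (edgeR, adjusted p = 0.00338), a call that held with each library left out, and 0.18 ± 0.06 in METTL14 KD (edgeR, adjusted p = 0.0342). The METTL14 KD call ended when any of 4 libraries was left out: scramble replicate 2 (0.14 ± 0.06, edgeR, adjusted p = 0.116), scramble replicate 3 (edgeR, adjusted p = 0.0672), METTL14 KD replicate 2 (edgeR, adjusted p = 0.106) or METTL14 KD replicate 3 (edgeR, adjusted p = 0.0681). With all libraries, DESeq2 did not call Psmb5 in METTL14 KD (DESeq2, adjusted p = 0.0645), while limma-voom did.

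Psmb7, the trypsin-like subunit, was at 172, 125 and 165 CPM in scramble, 168, 196, 182 and 185 CPM in METTL3 KD and 193, 190, 183 and 194 CPM in METTL14 KD. Scramble replicate 2 lay far below the rest, and METTL3 KD replicate 1 lay within the range of scramble. With all libraries the log2 fold changes of 0.25 ± 0.10 in METTL3 KD (edgeR, adjusted p = 0.0939) and 0.30 ± 0.10 in METTL14 KD (edgeR, adjusted p = 0.0624) did not pass. They were smaller and passed once scramble replicate 2 was left out, at 0.12 ± 0.04 (edgeR, adjusted p = 0.0374) and 0.18 ± 0.04 (edgeR, adjusted p = 0.00490). With all libraries, DESeq2 did call Psmb7 in METTL3 KD (DESeq2, adjusted p = 0.0455) and METTL14 KD (DESeq2, adjusted p = 0.0164), as did limma-voom.

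Among the structural beta subunits, Psmb2 and Psmb3 hardly moved with scramble replicate 2. Psmb2 was at 134, 133 and 142 CPM in scramble, 158, 150, 149 and 147 CPM in METTL3 KD and 155, 157, 148 and 161 CPM in METTL14 KD, with neither knockdown overlapping scramble. Its log2 fold changes were 0.14 ± 0.04 (edgeR, adjusted p = 0.00460) and 0.18 ± 0.04 (edgeR, adjusted p = 0.00111). Psmb3 was at 174, 171 and 176 CPM in scramble and at 183 to 203 CPM over the 8 knockdown libraries, with log2 fold changes of 0.14 ± 0.04 (edgeR, adjusted p = 0.00427) and 0.13 ± 0.04 (edgeR, adjusted p = 0.0113). Both have transcripts under 1000 bases. When each library's trend with transcript length was removed, their METTL3 KD values fell to 0.07 (edgeR, adjusted p = 0.137) and 0.06 (edgeR, adjusted p = 0.205), and Psmb3 in METTL14 KD was at 0.07 (edgeR, adjusted p = 0.113). Psmb4 rose by 0.18 ± 0.06 (edgeR, adjusted p = 0.0300) and 0.20 ± 0.06 (edgeR, adjusted p = 0.0255), and by 0.09 ± 0.03 and 0.11 ± 0.03 without scramble replicate 2. Its METTL3 KD call ended without METTL3 KD replicates 2 or 4 (edgeR, adjusted p = 0.0608 and adjusted p = 0.0729), and its METTL14 KD call without METTL14 KD replicates 1 or 2 (edgeR, adjusted p = 0.0600 and adjusted p = 0.0675).

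**Figure D3:**
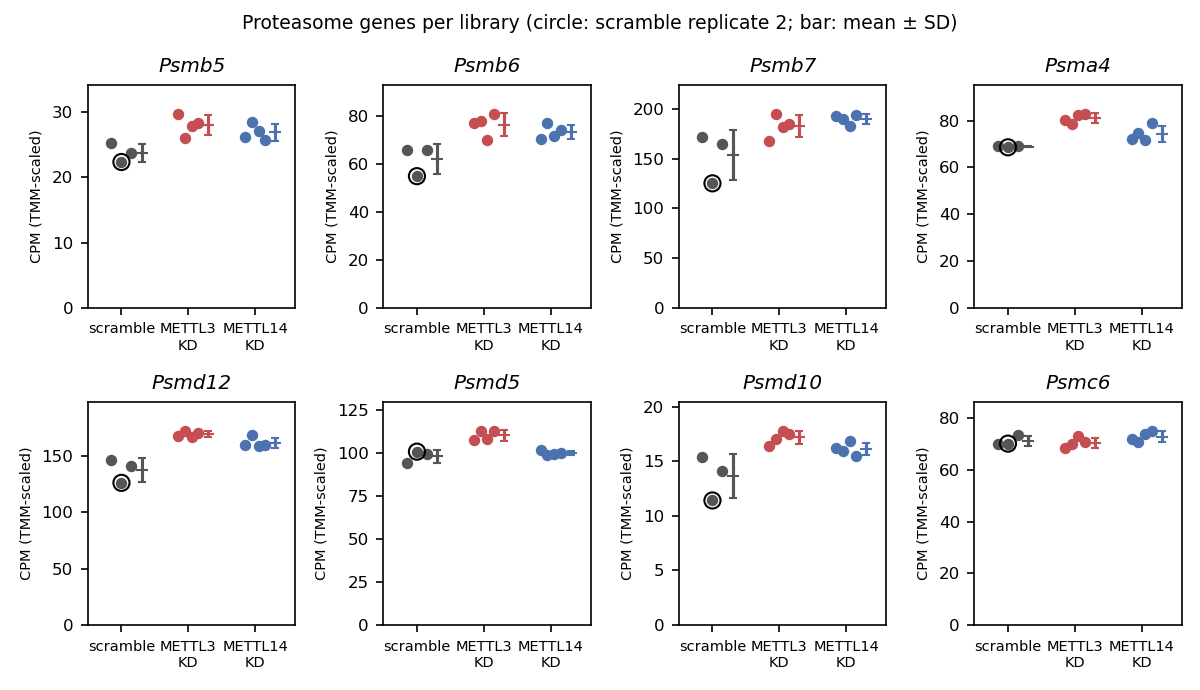
CPM (vertical axis, from 0) of 8 proteasome genes in each library, as points by group, with the mean ± SD beside them and scramble replicate 2 circled. Psmb6, Psmb5 and Psmd12 show no overlap of either knockdown with scramble, Psmd5 is high in METTL3 KD alone, and Psmc6 overlaps in all groups.

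Of the alpha ring, which gates entry to the barrel, 3 of 7 tested genes rose in each knockdown. Psma4 was at 68.9, 68.6 and 69.0 CPM in scramble, 80.1, 78.7, 82.5 and 82.9 CPM in METTL3 KD and 71.9, 74.5, 71.9 and 78.8 CPM in METTL14 KD. The 3 scramble libraries were nearly identical, METTL3 KD lay well above them, and METTL14 KD lay between with its replicate 4 inside the METTL3 KD range. The log2 fold change in METTL3 KD was 0.24 ± 0.04 (edgeR, adjusted p = 8.32e-05) and stayed at 0.23 ± 0.04 without scramble replicate 2. In METTL14 KD it was 0.11 ± 0.04 (edgeR, adjusted p = 0.0472), and that call was lost in 9 of the 11 fits with a library left out, with an adjusted p of up to 0.142 without METTL14 KD replicate 4.

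Psma6 rose in both knockdowns, from 144, 124 and 154 CPM in scramble to 155, 163, 162 and 168 CPM in METTL3 KD and 161, 171, 162 and 160 CPM in METTL14 KD. Scramble replicate 3 came close to the lowest METTL3 KD library, without overlap. The log2 fold changes were 0.21 ± 0.06 (edgeR, adjusted p = 0.0140) and 0.22 ± 0.06 (edgeR, adjusted p = 0.0149), and without scramble replicate 2 they were 0.12 ± 0.04 and 0.14 ± 0.04. Psma5 was called in METTL3 KD in both fits, at 0.25 ± 0.07 and 0.15 ± 0.04, though not without METTL3 KD replicate 2 (edgeR, adjusted p = 0.0559) or replicate 4 (edgeR, adjusted p = 0.0510). Psma2 was the single gene called in METTL14 KD and not in METTL3 KD with all libraries, at 0.16 ± 0.05 (edgeR, adjusted p = 0.0361) against 0.12 ± 0.05 (edgeR, adjusted p = 0.0824). Its METTL14 KD call was lost in 8 of the 11 fits with a library left out, and at 0.08 ± 0.03 without scramble replicate 2 (edgeR, adjusted p = 0.0968). Psma3 had the alpha ring's deepest low in scramble replicate 2, at 68.0% of the other scramble libraries. It passed in neither knockdown with that library, and without it the log2 fold changes were 0.11 ± 0.03 in METTL3 KD (edgeR, adjusted p = 0.0158) and 0.12 ± 0.03 in METTL14 KD (edgeR, adjusted p = 0.0112).

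In the ring of ATPases that pulls substrates into the core, 4 of 6 genes rose in each knockdown. These were Psmc2, Psmc3, Psmc4 and Psmc5, with log2 fold changes from 0.11 to 0.21 in METTL3 KD and from 0.13 to 0.19 in METTL14 KD. With scramble replicate 2 left out, their ranges were 0.08 to 0.13 and 0.09 to 0.11. Psmc5 was at 177, 152 and 187 CPM in scramble, 193, 206, 195 and 202 CPM in METTL3 KD and 199, 195, 191 and 196 CPM in METTL14 KD. No knockdown library fell inside the scramble range. Its log2 fold changes were 0.21 ± 0.05 (edgeR, adjusted p = 0.00530) and 0.18 ± 0.05 (edgeR, adjusted p = 0.0192). Leaving out scramble replicate 2, they were 0.13 ± 0.03 (edgeR, adjusted p = 0.00205) and 0.10 ± 0.03 (edgeR, adjusted p = 0.0231).

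Psmc4 had the smallest log2 fold changes of the 4. It was at 195, 182 and 193 CPM in scramble, 209, 204, 202 and 207 CPM in METTL3 KD and 208, 213, 202 and 208 CPM in METTL14 KD. The log2 fold changes of 0.11 ± 0.03 (edgeR, adjusted p = 0.0141) and 0.13 ± 0.03 (edgeR, adjusted p = 0.00866) held with each library left out. With the length trend removed, Psmc4 was at 0.08 in METTL3 KD (edgeR, adjusted p = 0.0534). Psmc3 had 0.18 ± 0.05 (edgeR, adjusted p = 0.00558) and 0.16 ± 0.05 (edgeR, adjusted p = 0.0176). The METTL14 KD call of Psmc3 ended without METTL14 KD replicate 2 (edgeR, adjusted p = 0.0566) and that of Psmc2 without METTL14 KD replicate 1 (edgeR, adjusted p = 0.0551).

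Psmc6, the ATPase Rpt4, stood level beside its ring partners. It was at 70.0, 70.2 and 73.6 CPM in scramble, 68.3, 69.8, 73.1 and 70.7 CPM in METTL3 KD and 71.9, 70.7, 73.9 and 75.1 CPM in METTL14 KD. The groups overlapped throughout, with log2 fold changes of -0.02 ± 0.04 (edgeR, adjusted p = 0.784) and 0.03 ± 0.04 (edgeR, adjusted p = 0.575). Whether Psmc6 differed in response from the other ATPases was not tested. Psmc1 was at 0.20 ± 0.08 in METTL3 KD with all libraries (edgeR, adjusted p = 0.0752) and passed without scramble replicate 2 at 0.10 ± 0.04 (edgeR, adjusted p = 0.0447).

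The non-ATPase base subunits hold ubiquitin receptors and docking sites. Psmd1 rose in METTL3 KD by 0.11 ± 0.03 (edgeR, adjusted p = 0.0134) and in METTL14 KD by 0.10 ± 0.03 (edgeR, adjusted p = 0.0256), and the METTL14 KD call ended without scramble replicate 2 (edgeR, adjusted p = 0.0799) and without METTL14 KD replicates 2, 3 or 4. Psmd2, the largest contributor to the summed CPM, was at 513, 443 and 512 CPM in scramble, 537, 550, 538 and 563 CPM in METTL3 KD and 513, 527, 519 and 520 CPM in METTL14 KD. METTL3 KD lay above both other groups, while METTL14 KD replicate 1 fell within the scramble range. Its log2 fold change was 0.16 ± 0.04 in METTL3 KD (edgeR, adjusted p = 0.00535), 0.09 ± 0.03 without scramble replicate 2, and 0.09 ± 0.04 in METTL14 KD (edgeR, adjusted p = 0.144). Psmd4, the ubiquitin receptor Rpn10, passed in METTL14 KD without scramble replicate 2, at 0.09 ± 0.03 (edgeR, adjusted p = 0.0343), and in no other of these 4 fits.

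The lid was uneven, with 4 of 8 genes higher in METTL3 KD and 2 in METTL14 KD, and log2 fold changes from 0.02 to 0.30 in METTL3 KD. Psmd12, the lid subunit Rpn5, had the smallest adjusted p of the 43 genes in both knockdowns. It was at 146, 126 and 140 CPM in scramble, 167, 172, 166 and 170 CPM in METTL3 KD and 160, 168, 158 and 159 CPM in METTL14 KD. Scramble was below both knockdowns in every library. The log2 fold change was 0.30 ± 0.04 in METTL3 KD (edgeR, adjusted p = 1.17e-05) and 0.23 ± 0.04 in METTL14 KD (edgeR, adjusted p = 0.000338). Without scramble replicate 2 it was 0.24 ± 0.03 (edgeR, adjusted p = 3.03e-07) and 0.17 ± 0.03 (edgeR, adjusted p = 0.000128), and with the length trend removed 0.29 and 0.23.

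Psmd6, the lid subunit Rpn7, was at 67.4, 59.2 and 69.2 CPM in scramble, 75.6, 74.4, 73.5 and 72.7 CPM in METTL3 KD and 77.2, 76.0, 73.0 and 76.0 CPM in METTL14 KD, again with neither knockdown overlapping scramble. Its log2 fold changes were 0.18 ± 0.04 (edgeR, adjusted p = 0.00384) and 0.21 ± 0.04 (edgeR, adjusted p = 0.00195), or 0.12 ± 0.04 and 0.15 ± 0.04 without scramble replicate 2. Psmd14, the deubiquitinase Rpn11 that strips ubiquitin chains from substrates, was at 144, 122 and 137 CPM in scramble, 135, 138, 136 and 142 CPM in METTL3 KD and 136, 145, 142 and 139 CPM in METTL14 KD. All 3 groups overlapped, and neither log2 fold change passed, at 0.03 ± 0.04 (edgeR, adjusted p = 0.582) and 0.06 ± 0.04 (edgeR, adjusted p = 0.312). Psmd8, the lid subunit Rpn12, was at 138 to 147 CPM over all 11 libraries.

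Psmd7, which partners Psmd14 in the lid, was at 132, 99.8 and 123 CPM in scramble, 142, 145, 140 and 141 CPM in METTL3 KD and 123, 136, 129 and 128 CPM in METTL14 KD. METTL3 KD was above every other library, and METTL14 KD overlapped scramble. It rose in METTL3 KD by 0.26 ± 0.08 (edgeR, adjusted p = 0.0258), and by 0.15 ± 0.04 without scramble replicate 2 (edgeR, adjusted p = 0.00111). The call with all scramble libraries ended without METTL3 KD replicate 1 (edgeR, adjusted p = 0.0542) or replicate 2 (edgeR, adjusted p = 0.0600). Psmd11, whose level is known to limit 26S assembly in some cells, was called in METTL3 KD at 0.11 ± 0.04 (edgeR, adjusted p = 0.0454), a call lost in 8 of the 11 fits with a library left out, with an adjusted p of up to 0.136 without METTL3 KD replicate 2.

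Chaperones that assemble the base are not part of the finished particle. Psmd10 was at 15.4, 11.4 and 14.1 CPM in scramble, 16.4, 17.1, 17.8 and 17.5 CPM in METTL3 KD and 16.2, 15.9, 16.8 and 15.5 CPM in METTL14 KD. Every knockdown library lay above scramble, by a narrow margin for METTL14 KD. The log2 fold change in METTL3 KD was 0.33 ± 0.08 (edgeR, adjusted p = 0.00237) with all libraries and 0.22 ± 0.07 (edgeR, adjusted p = 0.0157) without scramble replicate 2. In METTL14 KD it was 0.24 ± 0.08 (edgeR, adjusted p = 0.0351), and 0.13 ± 0.07 without that library (edgeR, adjusted p = 0.236); the call also ended without METTL14 KD replicate 1, 2 or 3. Psmd9, another base chaperone, did not pass, at 0.06 ± 0.05 in METTL3 KD (edgeR, adjusted p = 0.391).

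Psmd5, the base chaperone S5b, set the knockdowns apart. It was at 94.0, 101 and 99.4 CPM in scramble, 107, 113, 108 and 113 CPM in METTL3 KD and 102, 98.8, 99.4 and 100 CPM in METTL14 KD. METTL3 KD lay above every other library, and METTL14 KD overlapped scramble. The log2 fold change was 0.17 ± 0.03 in METTL3 KD (edgeR, adjusted p = 0.000764) and 0.03 ± 0.03 in METTL14 KD (edgeR, adjusted p = 0.616). Scramble replicate 2 was not low for this gene, and without it the METTL3 KD value was 0.19 ± 0.04 (edgeR, adjusted p = 5.71e-05).

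Compared directly, METTL3 KD exceeded METTL14 KD in 2 of the 43 genes and was lower in 0 by edgeR's test, beside 3.66% of all genes called higher and 4.44% lower. None was lower at an unadjusted p under 0.05; the counts were 2 and 0 in DESeq2 and in limma-voom too. Psmd5 differed by 0.14 ± 0.03 (edgeR, adjusted p = 0.00733), which held with each library left out, and Psma4 by 0.13 ± 0.04 (edgeR, adjusted p = 0.0287). The Psma4 call was lost in 6 of the 11 fits with a library left out, with an adjusted p of up to 0.106 without METTL14 KD replicate 3. The median difference over the 43 genes was 0.02, and in 5 genes every METTL3 KD library lay above every METTL14 KD library, as in 8.43% of all genes. Without scramble replicate 2, which belongs to neither group but enters the shared fit, 6 genes were higher, beside 7.22% of all genes, and 0 lower, beside 7.62%. The added genes were Psmb1 (0.08 ± 0.03 with all libraries), Psmd2 (0.07 ± 0.04), Psmd3 (0.09 ± 0.03) and Psmd7 (0.14 ± 0.07). Psmg3 and Psme4 were called in METTL3 KD and not in METTL14 KD, and a difference between knockdowns was not shown for them.

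Of the 4 Psmg genes, which encode chaperones that help to put the 20S core together, 3 rose in METTL3 KD and 2 in METTL14 KD. Psmg3 was at 19.1, 18.0 and 20.9 CPM in scramble, 23.9, 21.0, 24.2 and 23.4 CPM in METTL3 KD and 22.4, 20.7, 21.3 and 20.6 CPM in METTL14 KD. METTL3 KD replicate 2 was barely above scramble replicate 3, and METTL14 KD overlapped scramble. Psmg3 log2 fold changes were 0.26 ± 0.06 (edgeR, adjusted p = 0.00378) and 0.13 ± 0.06 (edgeR, adjusted p = 0.143). Psmg4 had 0.25 ± 0.07 in METTL3 KD (edgeR, adjusted p = 0.00769) and 0.20 ± 0.07 in METTL14 KD (edgeR, adjusted p = 0.0454). Psmg4 was among the shortest of these genes, and with the length trend removed its METTL3 KD value was 0.14 (edgeR, adjusted p = 0.0939). Psmg1 passed in both with all libraries, at 0.18 ± 0.06 (edgeR, adjusted p = 0.0344) and 0.18 ± 0.06 (edgeR, adjusted p = 0.0388), and in neither without scramble replicate 2 (edgeR, adjusted p = 0.209 and adjusted p = 0.208). The METTL14 KD call of Psmg4 also ended without scramble replicate 2 (edgeR, adjusted p = 0.191), and those of Psmg1 and Psmg4 ended in 6 and 7 of the 11 fits with a library left out. With that scramble library left out, edgeR called 2 of the 4 in METTL3 KD (DESeq2 0, limma-voom 2) and 0 in METTL14 KD, where DESeq2 and limma-voom called 0 and 1 gene had an unadjusted p under 0.05 in edgeR.

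Among activators that can replace the 19S cap, Psme4, which encodes PA200, rose in METTL3 KD by 0.10 ± 0.03 (edgeR, adjusted p = 0.0230) and by 0.09 ± 0.03 without scramble replicate 2. That call ended without METTL3 KD replicate 2 (edgeR, adjusted p = 0.0517), METTL3 KD replicate 3 (edgeR, adjusted p = 0.0570) or scramble replicate 1 (edgeR, adjusted p = 0.0535). Psme3, the nuclear activator PA28 gamma, was called at 0.11 ± 0.04 (edgeR, adjusted p = 0.0340), and lost the call in 6 of those 11 fits, scramble replicate 2 included (edgeR, adjusted p = 0.0539). Psme1 was the gene whose values pointed down: it was at 23.1, 23.0 and 22.4 CPM in scramble and 21.3, 21.2, 20.3 and 21.2 CPM in METTL3 KD, with no overlap, as in 17.9% of all genes in this direction. Its log2 fold change of -0.12 ± 0.05 did not pass (edgeR, adjusted p = 0.0739), and with the length trend removed it passed at -0.18 (edgeR, adjusted p = 0.0115). Psme1 is interferon-induced, and 11 interferon-induced genes summed to 305, 378 and 315 CPM in scramble, 273 to 278 CPM in METTL3 KD and 288 to 296 CPM in METTL14 KD; their part in the value was not tested. Psme2, its partner in PA28, was at 0.16 ± 0.07 in METTL3 KD (edgeR, adjusted p = 0.0882), and Psmf1, the inhibitor PI31, at 0.04 ± 0.04 (edgeR, adjusted p = 0.523).

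Set side by side, the 31 tested subunits of the finished 26S particle had 19 calls in METTL3 KD and 15 in METTL14 KD, and without scramble replicate 2 they had 22 and 14. The 12 chaperones, activators and the inhibitor had 7 and 3, and without that library 5 and 0 (1 and 0 by DESeq2, 5 and 0 by limma-voom), with 1 gene in METTL14 KD at an unadjusted p under 0.05 in edgeR. Over all genes tested, 15.5% were called higher in METTL3 KD and 10.1% in METTL14 KD by edgeR. Without scramble replicate 2 these shares were 15.3% and 9.34%. The difference between the 31 subunits and the 12 other genes was not tested.

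Transcript levels of subunits differed widely although the particle holds them in fixed ratios. Per kilobase of transcript, the mean scramble level was highest for Psmb4 at 229 and Psmb3 at 227 CPM per kb, then Psma7 at 196, Psma1 at 177, Psmd2 at 165 and Psmb2 at 159 CPM per kb. The catalytic subunits were at 133 CPM per kb for Psmb7, 77.7 for Psmb6 and 26.4 for Psmb5. The lowest tested levels were 9.53 CPM per kb for Psmd10 and 15.6 for Psmd9, both chaperones. Transcript length sets this scale and a gene with several transcripts can be misplaced on it.

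Proteasome transcripts are short, and length went with the differences. The 45 genes had a median transcript length of 1440 bases, against 2821 over all tested genes with a length. In METTL3 KD, the median log2 fold change over all genes was 0.08 for transcripts under 1000 bases, 0.02 from 1000 to 2000 bases and -0.01 for longer ones. Over proteasome genes in the same classes it was 0.20 (8 genes), 0.18 (23 genes) and 0.11 (12 genes). In METTL14 KD these medians were 0.05, 0.01 and -0.00 over all genes and 0.16, 0.18 and 0.05 over proteasome genes. With each library's trend with length removed, 20 proteasome genes were higher in METTL3 KD, beside 16.1% of all genes, and 1, Psme1, was lower, beside 15.8%. In METTL14 KD 13 were higher, beside 10.7%. The medians were 0.13 and 0.11. With scramble replicate 2 also left out, a combination added after seeing the data, the medians were 0.0838 and 0.0824. In METTL3 KD 19 proteasome genes were then higher and 1 lower, beside 2208 and 2121 of all 13894 genes tested. In METTL14 KD 15 were higher, beside 1425 of all genes.

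Genes whose mean-centred profile followed the mean of the 43 most closely were sought over all tested genes, as a description without a test. Over 11 libraries these were Ppp1r8 (Pearson r = 0.99), Slc25a5, Apmap, Atp5j2 and Timm10, the last at r = 0.98. Over the 10 libraries without scramble replicate 2 they were Prpf31 (r = 0.99), Slc25a3, Nop2, Sart3 and Heatr1. The 2 sets had no gene in common. The libraries share controls and depth, and the profile over 11 libraries is shaped by the low of scramble replicate 2.

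The immunoproteasome subunits, which replace the catalytic beta subunits after interferon signals, went separate ways. Psmb10 rose in both knockdowns, from 20.7, 18.3 and 19.7 CPM in scramble to 25.4, 22.9, 22.0 and 24.4 CPM in METTL3 KD and 25.5, 25.5, 24.4 and 26.0 CPM in METTL14 KD. Neither knockdown overlapped scramble, and the log2 fold changes were 0.28 ± 0.06 (edgeR, adjusted p = 0.00136) and 0.37 ± 0.06 (edgeR, adjusted p = 0.000132). Psmb9 was low, at 3.72 to 4.55 CPM in scramble and 3.03 to 3.56 CPM in METTL3 KD, and fell there by 0.32 on the log2 scale (SE 0.12, edgeR, adjusted p = 0.0438). That call was lost in 8 of the 11 fits with a library left out, and at -0.23 ± 0.14 without scramble replicate 2 (edgeR, adjusted p = 0.211). Psmb8, at 3.93 to 6.70 CPM, did not pass in either knockdown. In scramble replicate 2, Psmb8 and Psmb9 were the highest of all libraries, as were the summed blood and interferon-induced markers; their part was not tested.

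Of 42 other genes of the list with a row, 8 rose and 5 fell in METTL3 KD, beside 15.5% and 15.8% of all genes. In METTL14 KD 8 rose and 4 fell, beside 10.1% and 10.8%. The median log2 fold changes were 0.00 and 0.03. Among the transcription factors of proteasome genes, 1 of 10 rose and 1 fell in METTL3 KD, and 2 rose and 3 fell in METTL14 KD, counts too small to set against those shares.

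Nfe2l1 was at 270, 236 and 271 CPM in scramble, 251, 246, 245 and 240 CPM in METTL3 KD and 236, 244, 247 and 236 CPM in METTL14 KD. Apart from scramble replicate 2, scramble lay above both knockdowns, while that library was level with the lowest knockdown values. With all libraries the log2 fold changes of -0.08 ± 0.04 (edgeR, adjusted p = 0.154) and -0.11 ± 0.04 (edgeR, adjusted p = 0.0659) did not pass. Without scramble replicate 2, Nfe2l1 fell by 0.14 (SE 0.03, edgeR, adjusted p = 0.000372) and by 0.17 (SE 0.03, edgeR, adjusted p = 5.50e-05). The factor made from Nfe2l1 is known to be controlled largely after translation, which RNA does not show. Nfe2l2, which encodes NRF2, was at -0.08 ± 0.04 in METTL3 KD (edgeR, adjusted p = 0.200) and at -0.13 ± 0.05 in METTL14 KD (edgeR, adjusted p = 0.0457). The METTL14 KD call was lost in 9 of the 11 fits with a library left out, with an adjusted p of up to 0.160 without METTL14 KD replicate 4.

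Maff, a small partner of both factors, was at 2.35 to 3.49 CPM in scramble and 1.29 to 1.84 CPM in METTL3 KD, and fell by 0.83 on the log2 scale in METTL3 KD (SE 0.20, edgeR, adjusted p = 0.00264) and by 0.79 in METTL14 KD (SE 0.20, edgeR, adjusted p = 0.00662). The METTL14 KD call ended without scramble replicate 1, at -0.59 (edgeR, adjusted p = 0.0552). Nfya, a subunit of NF-Y, which binds CCAAT, rose by 0.15 ± 0.03 (edgeR, adjusted p = 0.00184) and 0.16 ± 0.03 (edgeR, adjusted p = 0.00158). Its partner Nfyb fell in METTL14 KD by 0.19 (SE 0.05, edgeR, adjusted p = 0.00832). Stat3 rose in METTL14 KD, at 0.20 ± 0.03 (edgeR, adjusted p = 0.000149), and was at 0.05 ± 0.03 in METTL3 KD (edgeR, adjusted p = 0.287).

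**Figure D4:**
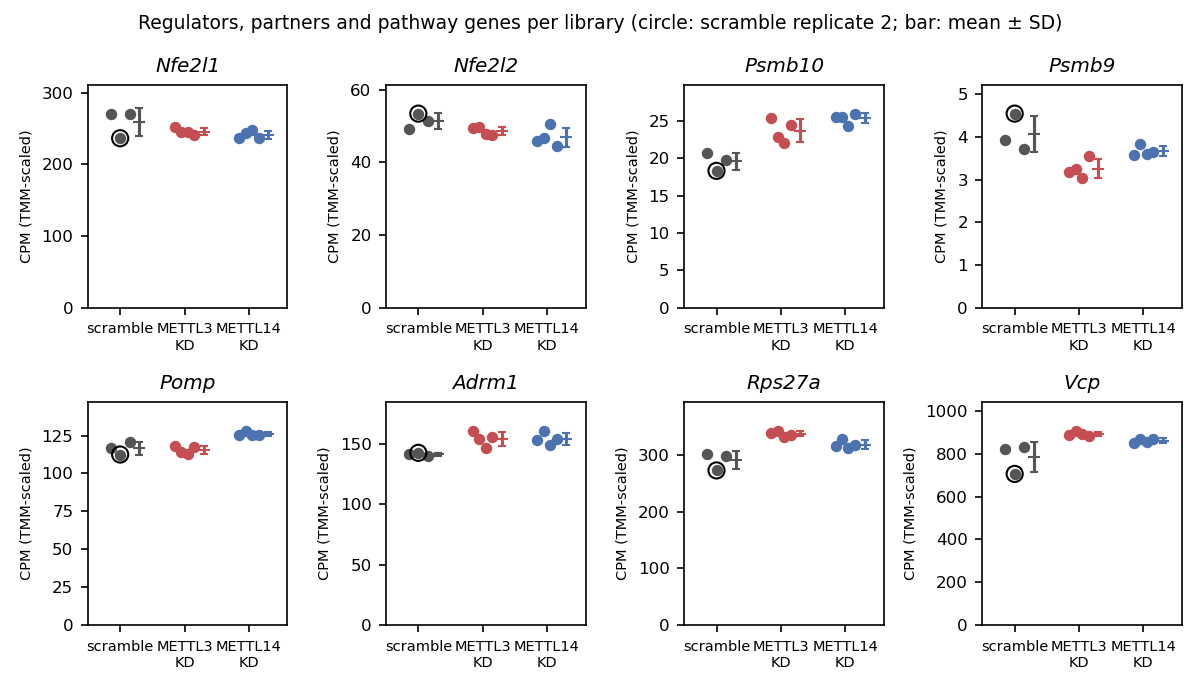
CPM (vertical axis, from 0) of 8 genes outside the rule in each library, as points by group, with the mean ± SD beside them and scramble replicate 2 circled. Psmb10, Adrm1 and Rps27a lie above scramble in both knockdowns, and for Nfe2l1 scramble replicate 2 sits among the knockdown libraries.

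Rps27a encodes ubiquitin fused to a ribosomal protein. It was at 302, 273 and 298 CPM in scramble, 339, 343, 333 and 335 CPM in METTL3 KD and 316, 329, 312 and 317 CPM in METTL14 KD, with both knockdowns above scramble in every library. Rps27a rose by 0.21 ± 0.04 (edgeR, adjusted p = 0.000104) and 0.13 ± 0.04 (edgeR, adjusted p = 0.0120), the latter 0.09 ± 0.03 without scramble replicate 2 and 0.07 with the length trend removed (edgeR, adjusted p = 0.0993). Uba1, the main ubiquitin-activating enzyme, rose by 0.11 ± 0.03 (edgeR, adjusted p = 0.00592) and 0.10 ± 0.03 (edgeR, adjusted p = 0.0163).

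Partners on the particle itself were mixed. Adrm1, the ubiquitin receptor Rpn13 of the cap, was at 140 to 143 CPM in scramble, 147 to 161 CPM in METTL3 KD and 149 to 161 CPM in METTL14 KD, with neither knockdown overlapping scramble. It rose by 0.13 ± 0.04 (edgeR, adjusted p = 0.00894) and 0.12 ± 0.04 (edgeR, adjusted p = 0.0148), and without scramble replicate 2 by 0.13 ± 0.04 in both; the METTL14 KD call ended without METTL14 KD replicate 2 (edgeR, adjusted p = 0.0566). Pomp, the maturation chaperone of the core, was at 113 to 121 CPM in scramble, 113 to 118 CPM in METTL3 KD and 125 to 128 CPM in METTL14 KD. It rose in METTL14 KD by 0.11 ± 0.03 (edgeR, adjusted p = 0.0222), not so without scramble replicate 2 (edgeR, adjusted p = 0.0690) or METTL14 KD replicate 2 (edgeR, adjusted p = 0.0609). Of the 4 deubiquitinases and ligases on the particle, Usp14, Uchl5, Ube3c and Ube3a, 0 passed in either knockdown by edgeR, DESeq2 or limma-voom, and 0 had an unadjusted p under 0.05.

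Upstream of the proteasome, Vcp, the p97 ATPase that extracts substrates from membranes, rose by 0.18 ± 0.04 in METTL3 KD (edgeR, adjusted p = 0.00249; 0.11 ± 0.03 without scramble replicate 2) and 0.13 ± 0.04 in METTL14 KD (edgeR, adjusted p = 0.0312). The METTL14 KD call of Vcp ended without scramble replicate 2, at 0.06 ± 0.03 (edgeR, adjusted p = 0.105), and without any 1 METTL14 KD library. Its cofactor Nploc4 rose in METTL3 KD by 0.09 ± 0.03 (edgeR, adjusted p = 0.0225), not so without METTL3 KD replicate 1 (edgeR, adjusted p = 0.0549). Of 8 shuttle factors, Zfand2a fell in METTL3 KD by 0.17 (SE 0.04, edgeR, adjusted p = 0.000905) and was at 0.03 ± 0.04 in METTL14 KD (edgeR, adjusted p = 0.630).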

How the data were processed

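Messenger RNA of 11 libraries was measured by stranded RNA-seq, per the labels' protocols. The authors deposited estimated counts per gene, made with kallisto per the submitters' processing notes. The sources used here give neither its version nor a genome build or annotation. Kallisto shares reads among similar transcripts, so genes with near-identical copies are less certain. Expected counts were rounded; 11.6% were not whole. Symbols and transcript lengths came from GENCODE M21 (main transcripts by the annotation's tags), and 48651 of 53947 rows matched a symbol; rows without one held 0.518% of counts.

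Groups and replicate numbers came from sample titles. EdgeR 4.0.16 in R 4.3.3 fitted one mean per group over 11 libraries, with the trimmed mean of M-values, filterByExpr (minimum count 10), robust quasi-likelihood F-tests and Benjamini-Hochberg adjustment at 0.05. With 8 residual degrees of freedom, the biological coefficient of variation was 4.38%. SE is the size of a log2 fold change over the square root of F. Alternatives used DESeq2 1.42.0, limma 3.58.1, other scalings and filters, 2-group fits, a replicate block, a per-library loess on transcript length, and each library left out. Combinations of a tool, scaling or length trend with scramble replicate 2 left out were added after seeing the data. The tests were checked on simulated data. Of 67 genes changed 1.2-fold, 44.8% were recovered for METTL3 KD against scramble and 64.2% for METTL14 KD. For METTL3 KD against METTL14 KD it was 59.7%. In these 3 simulations 8, 11 and 13 unchanged genes were called. Changes under 1.2-fold were not simulated, so genes that did not pass may have small differences. Replicate pairs all differed beyond sampling noise, with at least 2.10 for chi-square per degree of freedom. Scramble replicate 2 was at 14.9 against scramble replicate 1 and 13.3 against scramble replicate 3, while no other pair exceeded 3.87.

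The proteasome genes, pathway and marker lists were chosen with earlier results of these data known. Named genes were Psmb5, Psmb6 and Psmb7, per role and knockdown the 2 called genes with the smallest adjusted p in each direction, genes called between knockdowns, up to 6 genes whose call ended without scramble replicate 2, genes under the filter, Nfe2l1, Nfe2l2, and 2 called genes per pathway group, direction and knockdown. Paaf1 of the pathway list matched no row. Some genes of the pathway list are counted but not reported here by name.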

Additional observations from a re-analysis of the deposited data

Results flagged for a closer look

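In 6 of 86 sets of 4 knockdown libraries (43 proteasome genes in 2 knockdowns), 1 library lay far from the other 3, by a gap that took most of the set's range; chance alone gives about 1 in 20. Psmb3 was at 183 CPM in METTL14 KD replicate 3, against 192 to 194 CPM in the others. Psmd12 was at 168 CPM in METTL14 KD replicate 2, against 158 to 160 CPM. In METTL3 KD replicate 2, Psmd11 was at 58.7 CPM against 55.3 to 55.7 CPM, and Psmg4 at 15.2 CPM against 16.3 to 16.4 CPM. Psme1 was at 20.3 CPM in METTL3 KD replicate 3, against 21.2 to 21.3 CPM. Psmf1 was at 62.6 CPM in METTL3 KD replicate 1, against 58.7 to 59.2 CPM. The gaps are small beside the levels, and no cause was tested. Scramble, with 3 libraries, was not examined this way.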

How the results depend on the processing

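With each of 11 libraries left out, and under every other alternative, the METTL3 KD count ran from 19 to 30, with a median log2 fold change of 0.0838 to 0.2097, and the METTL14 KD median ran from 0.0824 to 0.1762. The METTL14 KD count was 7 when its 2 groups alone were fitted, and 9 to 19 with each library left out. Compared directly, METTL3 KD exceeded METTL14 KD in 4 genes with sample quality weights, 6 with 2 groups, 1 with a length offset and 1 to 6 with each library left out. In combinations chosen after seeing the data, with scramble replicate 2 left out, that count was 5 by DESeq2, limma-voom or the length offset, 6 with relative log expression or upper-quartile scaling and 8 on library totals, and the median difference was 0.0053 under the length offset. Psmd5 in METTL14 KD ran from -0.0018 (without scramble replicate 1) to 0.0481 with each library left out. Of 2639 values of named genes under alternatives, 2214 stayed on their side of the threshold, 308 lost a call, 116 gained one and 1 changed sign, the Psmd5 value. The cause of these changes was not tested. Replicate numbers did not pair the libraries: deviations of same-numbered libraries correlated from -0.118 to 0.0674 over 10 pairs, and not every library correlated best with its own number. With a replicate block, the counts were 20 in METTL3 KD, 9 in METTL14 KD and 2 between them. Groups of 3 and 4 libraries and differences near 0.1 on the log2 scale limit how firmly single genes can be called.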
